A study of Mus musculus with 36 samples.

Results

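H3K9me3, trimethylation of lysine 9 on histone H3, was examined at 10 genes that make fatty acids and triglycerides: the transcription factor genes *Srebf1* and *Mlxipl*, and the enzyme genes *Acly*, *Acaca*, *Acacb*, *Fasn*, *Elovl6*, *Scd1*, *Scd2* and *Dgat2*. The members were all regions that the authors' tables assign to these gene symbols, out of 22325 symbols in the tables. The regions are bins of up to 501 bp cut from H3K9me3 peaks, and between 48 and 79 of them belonged to the 10 genes in each of 6 comparisons. That was 57 of 120683 bins in the female age comparison, 76 of 148133 in the male age comparison, and 74 of 140214, 79 of 159357, 48 of 116257 and 48 of 102145 in the 4 comparisons of maternal obesity.

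The libraries came from snap-frozen bulk liver of male and female offspring, 4 per group, at 3 weeks of age (before weaning) or at 8 weeks. The dams ate a Western-style diet with added fat, sucrose and cholesterol (maternal obesity, MO) or control chow before mating, during pregnancy and through lactation, and were mated with wild-type C57BL/6J males. All offspring, controls included, were floxed littermates (*Reg3g*-fl/+ or *Reg3g*-fl/fl) of a C57BL/6J colony for which no Cre is named in the sources used here, and the 8-week animals of both diets ate chow after weaning. Groups are named CF and MF (control and MO females) and CM and MM (control and MO males). The comparisons were CF at 8 against 3 weeks, CM at 8 against 3 weeks, and MO offspring against controls, done separately for females and males of 3 and of 8 weeks. The 8-week animals came from additional cohorts and had been weaned to chow. In the age comparisons, age therefore cannot be told apart from cohort or from the change of food. The unadjusted p-values are those of the authors' exact test of 4 against 4 libraries, called exact p here, and the FDR is the authors' adjustment of that p. How many bins the adjustment ran over is not given in the sources used here. For MO in males at 3 weeks it exceeded the 159357 listed, with a lowest exact p of 8.2e-07 and a lowest FDR of 0.211. The tables hold a change and a p-value per bin but no value per library, so the spread between the 4 animals of a group enters only through the p-values, and the approximate 95% intervals given in brackets were derived from the change and its p.

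In the liver, newly made fatty acids begin as citrate, which leaves the mitochondrion and is cleaved to acetyl-CoA. Acetyl-CoA carboxylase turns acetyl-CoA into malonyl-CoA, fatty acid synthase assembles palmitate from it, an elongase and desaturases lengthen and desaturate the chain, and acyltransferases place it in triglyceride. Insulin acts on these genes mainly through SREBP-1c, glucose through ChREBP. H3K9me3 is a mark of repressed chromatin, found over repeats and over silenced genes. In bulk liver, a different share of cell types and a different level of the mark per cell cannot be told apart.

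Broad H3K9me3 domains covered part of this pathway. The peaks listed for females covered 93.8% of *Fasn* and 79.0% of *Srebf1*, and those listed for males covered 93.6% and 84.9%. Across 21755 protein-coding genes the median covered share was 9.21% in females and 9.65% in males. *Acacb* was covered to 58.2% and 69.4%, *Scd2* to 59.4% and 64.9%, *Mlxipl* to 43.0% and 39.8%, *Dgat2* to 41.7% and 39.7%, and *Acly* to 32.5% and 31.0%. The long genes *Acaca* and *Elovl6* had little of the mark, with 1.89% and 3.88% covered in females and 2.96% and 7.00% in males. *Scd1* had 4.98% covered in females and 24.2% in males. The tables of each sex were built on that sex's own peak set, so the difference between the sexes in covered share was not tested.

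Within these domains the members' bins lay closer to genes than most. Promoter bins, within 3 kb of the start of any annotated transcript, were 42.1% of the members' bins in the female age table against 21.1% of all bins, and 42.1% against 20.3% in the male age table. Distal intergenic bins were 10.5% and 11.8% of the members' bins against 39.5% and 38.0% of all bins. The members' bins had a median GC content of 55.1% in the female age table (54.3% over all bins) and a median of 9.04% repeat-masked bases (12.8% over all bins). Their median average signal was 5.81 CPM against 6.29 CPM over all bins in females, where 39 of the 57 member bins were below the table median, and 4.36 against 4.29 CPM in males. Of 10 RefSeq promoter windows found for 7 of the genes, 8 overlapped a peak listed for females and 6 a peak listed for males, against 47.3% and 49.0% of 32851 windows.

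With age, few member bins passed the FDR threshold of 0.05. They were assigned to *Fasn* in females and to *Acacb*, *Scd1* and *Scd2* in males, and the *Scd1* and *Scd2* bins lay outside those genes. In control females 1 of 57 member bins was called, against 2.72% of all bins. In control males 5 of 76 were called, against 4.41% of all bins. Without adjustment, 18 of the 57 female bins were lower at 8 weeks with p under 0.05 and 4 were higher, where all bins gave 9.34% lower and 8.16% higher. In males 14 of 76 were lower and 7 higher, where all bins gave 11.6% lower and 10.2% higher. The median log2 change of the member bins was −0.44 in females, beside −0.03 over all bins, and −0.27 in males, beside −0.05. With each gene counted once, the median of the 10 gene medians was −0.28 in females and −0.11 in males. The 9 female and 21 male member bins from single-bin peaks had medians of −0.70 and −0.04. *Acacb* alone held 15 of the female and 17 of the male bins; without it the female count was 13 lower and 2 higher of 42 bins, and the male count 8 lower and 3 higher of 59.

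The bins' signal moved with these counts. In the female age table the bins below the median log2 CPM had a median change of −0.19 and those above it 0.11, and 39 of the 57 member bins were below. In males these medians were −0.30 and 0.16. After the median change of bins of like GC content and signal was subtracted, 5 female member bins were lower and 6 higher at p under 0.05, and 7 male bins were lower and 7 higher. All bins were not counted after this subtraction, so these counts have no background share beside them. The median of the female member bins was −0.39 after this subtraction and that of the male bins −0.17. Of the bins with p under 0.05, 8 of 22 in females and 8 of 21 in males kept it after the subtraction. In females these were the *Fasn* bin, 2 *Acacb* bins (before the internal start and in exon 38), 2 *Elovl6* bins (over the start and at chr3:129557632-129558132), the exon 7 bin of *Mlxipl*, the *Scd1* bin at chr19:44378078-44378578 and the *Dgat2* bin at chr7:99177443-99177943. In males they were 5 *Acacb* bins (the 3 called bins, intron 34 and exon 38), the called *Scd1* and *Scd2* bins and the *Acly* bin. Among the member bins above the median signal, the median change was −0.28 in the 18 female bins and 0.22 in the 39 male bins.

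**Figure D1:**
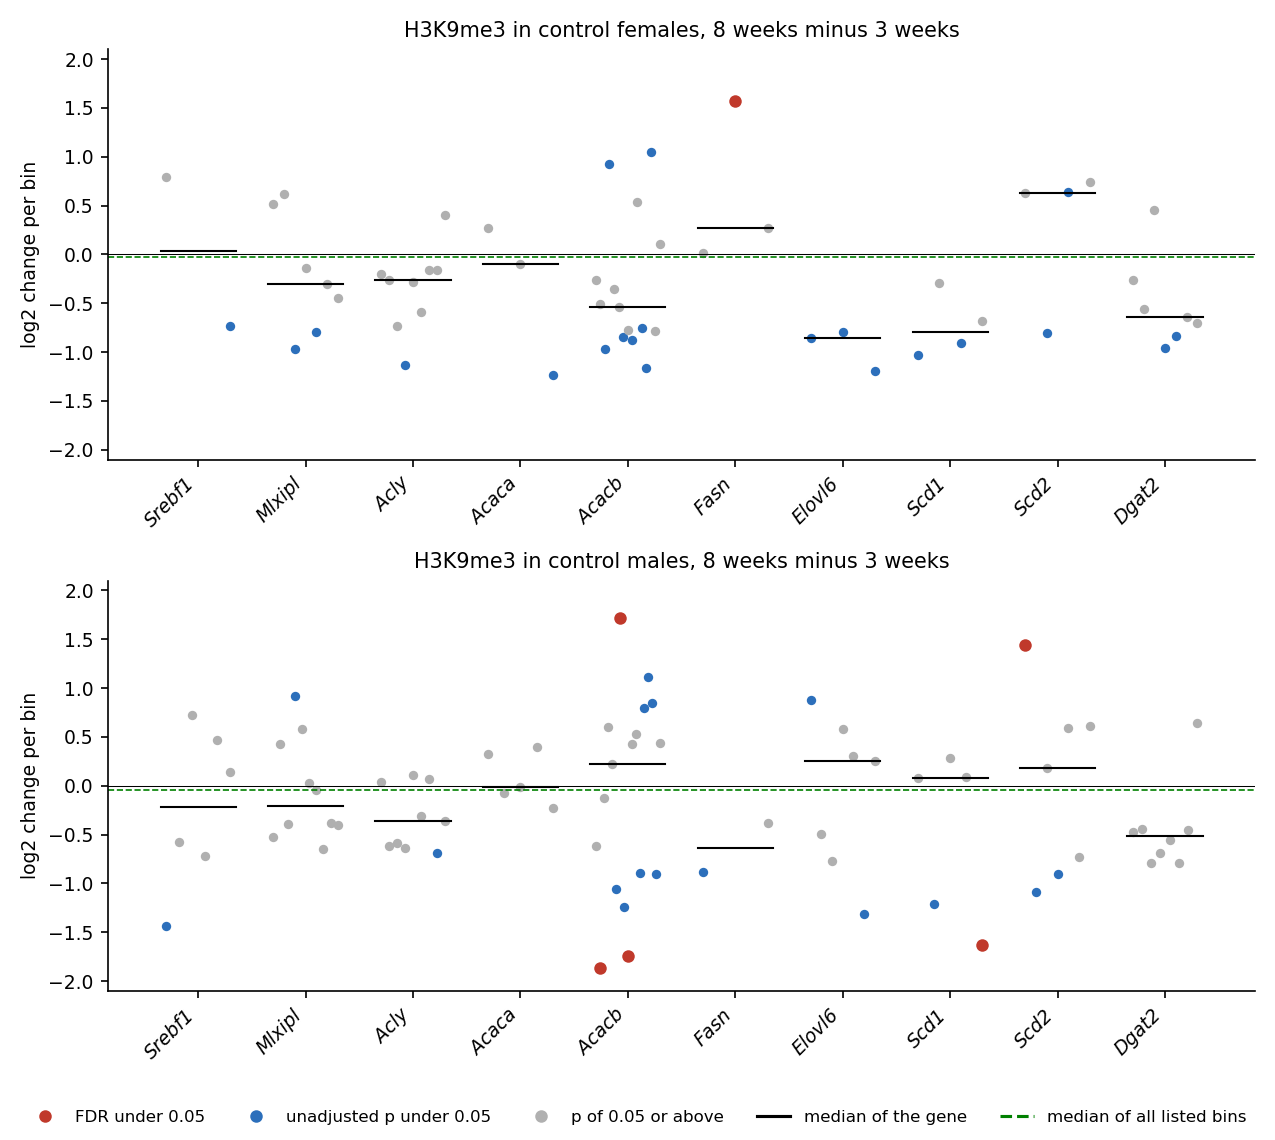
Log2 change of H3K9me3 from 3 to 8 weeks (y axis) in each member bin of the 10 genes (x axis), in control females (top) and control males (bottom); red points have an FDR under 0.05, blue points an unadjusted p under 0.05, black lines are the medians per gene and the green dashed line the median of all listed bins. The red points are 1 bin assigned to *Fasn* in females and 3 bins assigned to *Acacb*, 1 to *Scd1* and 1 to *Scd2* in males.

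*Srebf1* (chr11:60199089-60222581, minus strand) encodes SREBP-1, which is held in the endoplasmic reticulum until its amino-terminal part is released to switch on lipogenic genes. In control females its intron 1 bin at chr11:60215263-60215763 had a log2 change of −0.73 [−1.44 to −0.02] with age (exact p = 0.045, FDR = 0.347), and its promoter bin at chr11:60212915-60213415 had 0.79 (exact p = 0.095). In control males the bin at chr11:60208122-60208622, a promoter bin at position −934 from a transcript start, had −1.44 [−2.42 to −0.45] (exact p = 0.00413, FDR = 0.0897), or −0.86 (approximate p of 0.0847) with the GC and signal trend subtracted. This was the bin listed for a peak of 28617 bp (chr11:60182122-60210738) that begins outside the gene and ends within it. The other male promoter bins had changes of 0.72, −0.72, 0.46 and 0.14, none with p under 0.05.

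*Mlxipl* (chr5:135089890-135138382, plus strand) encodes ChREBP, the carbohydrate-responsive factor. In females 2 bins in the gene were lower at 8 weeks with p under 0.05: an intron 1 bin at chr5:135111571-135111908 (−0.96, exact p = 0.0175) and an exon 7 bin at chr5:135124002-135124464 (−0.80, exact p = 0.0334), with FDRs of 0.222 and 0.303. In males a promoter bin at chr5:135107976-135108476 was 0.92 higher (exact p = 0.0262, FDR = 0.242). The promoter bin over the first start of the gene had 0.52 in females (exact p = 0.226) and −0.52 in males (exact p = 0.15), a difference of 1.04 between the sexes with an interval from −0.06 to 2.14. The remaining promoter bins had 0.62 and −0.44 in females and 0.42 and −0.40 in males. The bin over this start is shown because it is the member promoter whose RefSeq window, 250 bases before to 50 after the start, holds the palindrome CACGTG, the core of carbohydrate response elements and of other E-boxes. The window lies on the plus strand of GRCm38 at chr5:135089640-135089939, and the capitals mark the CACGTG.
Mlxipl promoter: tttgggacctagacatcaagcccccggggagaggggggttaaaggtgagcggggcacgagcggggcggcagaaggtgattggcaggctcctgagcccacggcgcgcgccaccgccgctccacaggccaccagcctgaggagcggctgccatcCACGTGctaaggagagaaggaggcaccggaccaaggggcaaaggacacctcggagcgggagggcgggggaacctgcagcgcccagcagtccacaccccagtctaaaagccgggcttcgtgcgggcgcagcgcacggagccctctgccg

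CACGTG was found in 1 of the 10 windows, and in 7.15% of all 32851 RefSeq promoter windows. The LXR element AGGTCA repeated with 4 bases between, and the sterol regulatory core CACCCCAC, alone or with AT before it, were searched on both strands and were in none of the 10 windows. Over all windows the shares were 0.0152% for the repeat, 2.87% for CACCCCAC and 0.0913% for the longer form.

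*Acly* (chr11:100476353-100528000, minus strand) encodes ATP citrate lyase, which supplies acetyl-CoA, and had 9 bins in each age table. In females the promoter bin at chr11:100498207-100498707 had a change of −1.14 [−2.07 to −0.20] (exact p = 0.0169, FDR = 0.219). The overlapping male bin had −0.61 (exact p = 0.15). In males the promoter bin at chr11:100524956-100525367 had −0.69 (exact p = 0.0493, FDR = 0.331). The other promoter bins had −0.20, −0.26, −0.74, −0.16, −0.16 and 0.40 in females, and 0.04, −0.61, −0.58, −0.31, 0.07 and −0.36 in males. In females 8 of the 9 *Acly* bins were below 0, and in males 6 of 9.

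*Acaca* and *Acacb* encode the acetyl-CoA carboxylases: the product of *Acaca* makes malonyl-CoA for synthesis in the cytosol, and that of *Acacb* sits at the mitochondrion, where malonyl-CoA restrains fatty acid import. *Acaca* (chr11:84129672-84401651, plus strand) had 3 female and 5 male bins. An exon 18 bin at chr11:84257043-84257214 was lower in females (−1.23 [−2.19 to −0.28], exact p = 0.0114, FDR = 0.181). Its promoter bins had 0.27 in females and 0.32, −0.07 and 0.40 in males, none with p under 0.05.

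*Acacb* (chr5:114146535-114250761, plus strand) had the most bins of any member and the strongest male changes. In control males 3 of its 17 bins were called. The bin at chr5:114173120-114173620, at position −2286 from the start of an internal *Acacb* transcript, rose 3.30-fold (log2 1.72 [1.09 to 2.35], FDR = 5.84e-05). The promoter bin at chr5:114144942-114145442, at position −1093 from the first *Acacb* start, fell 3.64-fold (−1.86 [−2.80 to −0.92], FDR = 0.0091). The intron 2 bin at chr5:114182765-114183265 fell 3.35-fold (−1.74 [−2.61 to −0.88], FDR = 0.00741). Rising and falling bins thus lay at the same gene. After subtraction of the change shared by bins of like GC content and signal, these 3 had 0.98, −1.24 and −1.34, with FDRs of 0.0838, 0.159 and 0.0828.

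Further *Acacb* bins had p under 0.05 in males without passing the FDR. In intron 2, bins at chr5:114168561-114169061 and chr5:114179138-114179638 had −1.05 and −1.24, and in intron 18 the bin at chr5:114206360-114206860 had −0.89. The bin at chr5:114244950-114245450, near a late start, had −0.90. Bins in exon 21 (chr5:114210582-114211082), intron 34 (chr5:114227334-114227834) and exon 38 (chr5:114232958-114233458) had 0.80, 1.11 and 0.85. The FDRs of these 7 bins ran from 0.0941 to 0.331. The other male promoter bins had −0.12, 0.22, 0.43 and 0.53.

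In control females 7 of 15 *Acacb* bins had p under 0.05 and none an FDR under 0.05. Of these, 5 were lower at 8 weeks: the promoter bin at chr5:114165194-114165694 (−0.97), intron 9 at chr5:114194000-114194500 (−0.85), intron 18 at chr5:114206485-114206985 (−0.88), exon 30 at chr5:114223606-114224106 (−0.76) and intron 35 at chr5:114228851-114229351 (−1.17). The promoter bin at chr5:114172974-114173474 (0.93 [0.25 to 1.61], exact p = 0.00696) and the exon 38 bin at chr5:114232965-114233465 (1.05 [0.18 to 1.92], exact p = 0.0177) were higher. The FDRs of the 7 ran from 0.136 to 0.343. The other promoter bins had −0.26, −0.50, −0.35, −0.77 and 0.11. The promoter bin with −0.97 contains the RefSeq promoter window at chr5:114165268-114165567 on the plus strand, which is shown because the mark over it was lower at 8 weeks in females (exact p = 0.016, FDR = 0.214) and none of the motifs searched was in it.
Acacb promoter: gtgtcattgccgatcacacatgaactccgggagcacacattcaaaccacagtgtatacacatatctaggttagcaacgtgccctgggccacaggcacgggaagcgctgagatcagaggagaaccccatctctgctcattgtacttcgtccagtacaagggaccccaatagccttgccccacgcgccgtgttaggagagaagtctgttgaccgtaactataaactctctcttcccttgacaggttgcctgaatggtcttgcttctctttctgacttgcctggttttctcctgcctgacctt

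Females and males share no library, and 3 *Acacb* places had p under 0.05 in both sexes with the same sign. The share of such places over all genes was not counted. At the place before the internal start the change was 0.93 in females and 1.72 in males, and females minus males was −0.79 [−1.72 to 0.13]. In exon 38 it was 1.05 and 0.85, with a difference of 0.21 [−0.91 to 1.32]. In intron 18 it was −0.88 and −0.89, with a difference of 0.02 [−1.15 to 1.19]. With the GC and signal trend subtracted, the changes in females and males were 1.001 and 0.98 at the first place, 1.31 and 0.93 in exon 38, and −0.75 and −0.27 in intron 18, where neither sex kept p under 0.05. The first of these places had the highest signal of the member bins in the male age comparison, 3.10 log2 CPM, and 77.8% of its bases are masked as repeats in the reference. Its sequence is shown from the part that the female and male bins share, chr5:114173148-114173447 on the plus strand of GRCm38, where 89.0% of bases are repeat-masked and the GC content is 49.0%. Capitals mark the bases outside annotated repeats.
Acacb place before the internal start: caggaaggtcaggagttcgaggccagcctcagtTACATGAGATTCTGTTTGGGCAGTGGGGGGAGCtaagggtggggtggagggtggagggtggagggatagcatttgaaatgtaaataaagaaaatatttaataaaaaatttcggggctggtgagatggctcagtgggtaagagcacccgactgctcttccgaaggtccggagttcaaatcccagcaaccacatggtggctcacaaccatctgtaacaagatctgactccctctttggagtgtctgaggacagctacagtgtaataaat

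**Figure D2:**
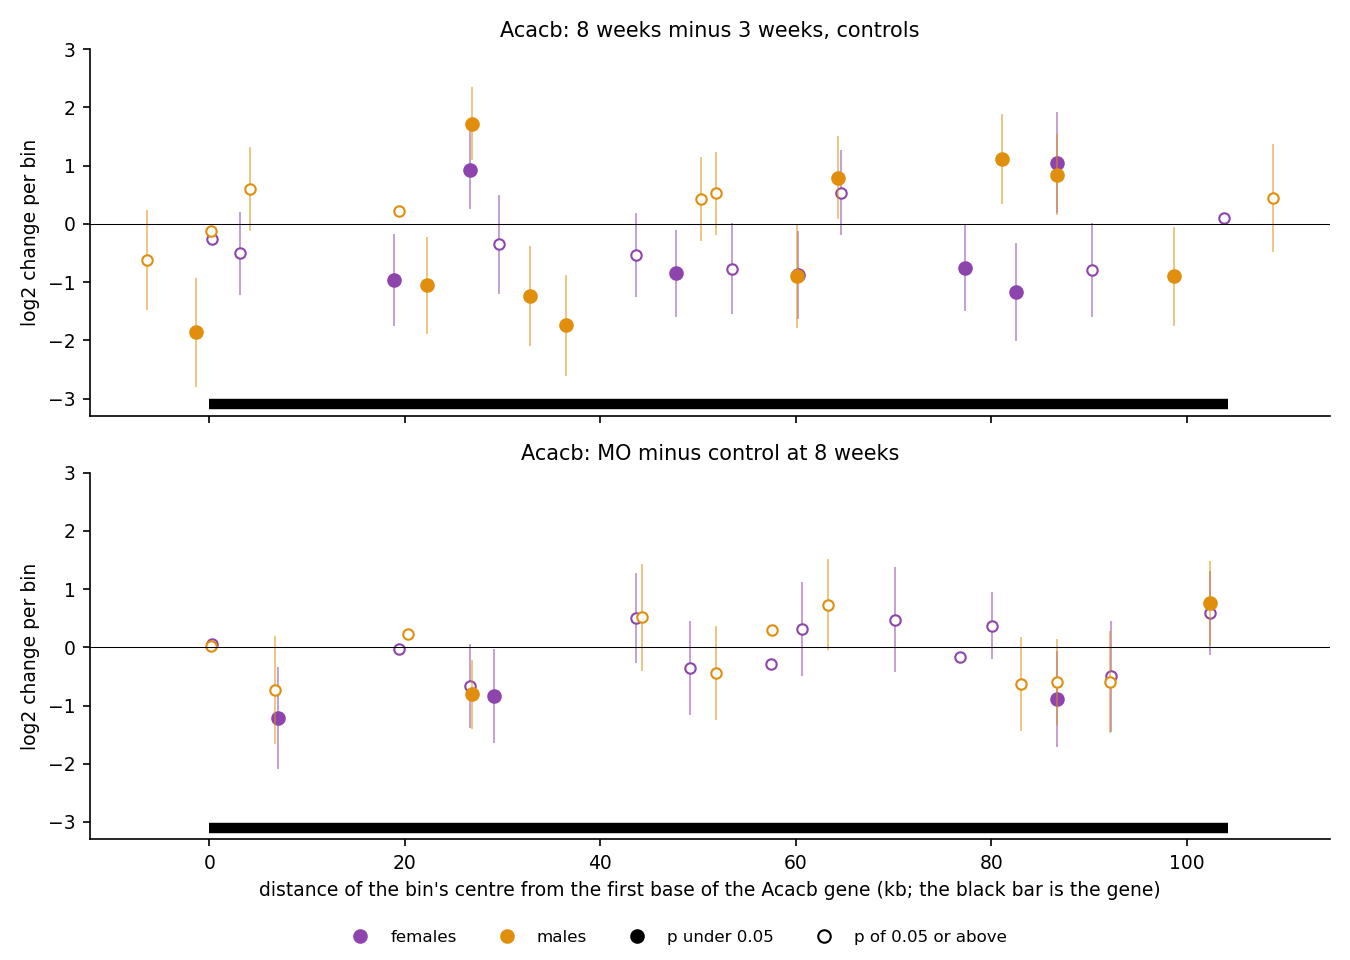
Log2 change of H3K9me3 (y axis, with approximate 95% intervals) in *Acacb* bins by distance from the first base of the gene in kb (x axis), for females (purple) and males (orange); filled points have p under 0.05, and points without a bar have a p of 0.5 or above. The top panel is 8 against 3 weeks in controls and the bottom panel MO against control at 8 weeks. The highest point in the top panel is the male bin with 1.72, next to the female bin with 0.93.

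*Fasn* (chr11:120805846-120824547, minus strand) encodes fatty acid synthase. Most of the gene lay in a peak of 22726 bp in females and 24908 bp in males, and each table lists 1 bin of that peak. In the age tables these bins nearly coincided. The female bin at chr11:120821005-120821505, 2275 bases after a transcript start, rose 2.98-fold (log2 1.57 [0.70 to 2.45], exact p = 0.000418, FDR = 0.0278). Its average signal was low, 2.32 log2 CPM, beside a median of 2.65 over all bins of the female age comparison. The male bin at chr11:120821047-120821547 had −0.88 [−1.69 to −0.07] (exact p = 0.0325, FDR = 0.27). The female change exceeded the male change by 2.46 [1.27 to 3.65], the largest difference between the sexes among the 19 places compared. After subtraction of the trend with GC content and signal the female bin had 1.64 (FDR = 0.0354) and the male bin −0.79. The sequence from the middle of the shared part, chr11:120821127-120821426, is given on the minus strand, the strand of *Fasn*. It holds no masked repeat, has a GC content of 57.7%, and has 3 CpG dinucleotides, marked in capitals.
Fasn place: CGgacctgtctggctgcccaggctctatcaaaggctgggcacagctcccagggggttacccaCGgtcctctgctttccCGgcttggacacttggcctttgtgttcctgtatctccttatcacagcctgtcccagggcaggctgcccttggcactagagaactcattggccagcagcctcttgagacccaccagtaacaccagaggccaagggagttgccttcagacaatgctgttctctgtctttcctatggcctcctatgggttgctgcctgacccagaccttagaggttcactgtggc

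The bin listed for a long peak is more often past a threshold than that of a short peak, and this applies to *Fasn*. In control females with age, 58.0% of the 412 bins listed for peaks of over 32 bins had p under 0.05 and 10.2% an FDR under 0.05, against 15.6% and 2.29% of the 40392 bins of single-bin peaks. In males these shares were 83.1% and 21.4% against 17.4% and 3.29%. The *Fasn* peak had room for 46 bins in females and 50 in males, and the male *Srebf1* peak for 58. Members came from longer peaks than the rest: 84.2% of their bins in the female age table were from peaks of several bins, against 66.5% of all bins, and 72.4% against 64.9% in males. Within peaks of 2 to 4 bins, 11 of 26 female member bins had p under 0.05, where 16.8% of all such bins did, and 11 of 35 male member bins, where 20.5% did. Within peaks of 5 to 16 bins it was 7 of 19 in females, where 20.0% of all such bins did, and 3 of 13 in males, where 30.2% did. Among single-bin peaks the counts were 3 of 9 in females and 2 of 21 in males.

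**Figure D3:**
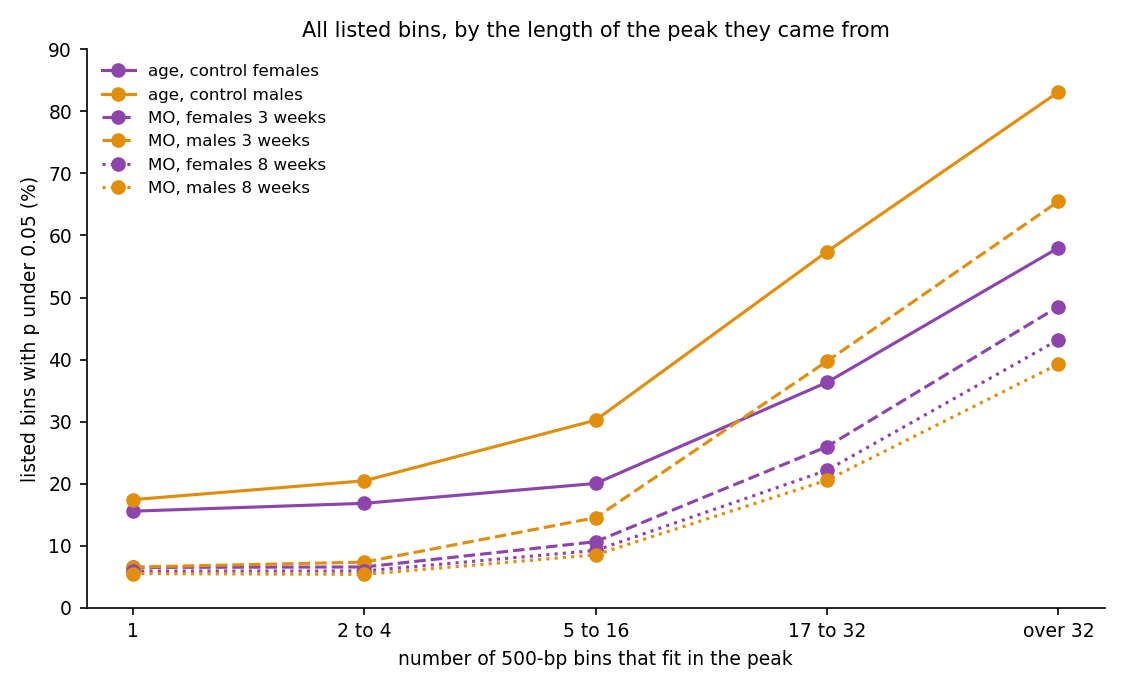
Share of all listed bins with an unadjusted p under 0.05 (y axis, percent) by the number of 500-bp bins that fit in the peak they came from (x axis), in the 6 comparisons. The female age share rises from 15.6% for 1-bin peaks to 58.0% for peaks of over 32 bins, and the male age share from 17.4% to 83.1%.

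*Elovl6* (chr3:129532355-129638495, plus strand) encodes the elongase that extends palmitate to stearate. In control females all 3 of its bins were lower at 8 weeks with p under 0.05: the bin over its start at chr3:129532141-129532641 (−0.86 [−1.61 to −0.10], exact p = 0.0262, FDR = 0.271), and intron 1 bins at chr3:129541528-129542028 (−0.79, exact p = 0.0441, FDR = 0.344) and chr3:129557632-129558132 (−1.20 [−1.95 to −0.44], exact p = 0.00196, FDR = 0.0694). In males, 1 promoter bin at chr3:129533981-129534481 had 0.88 (exact p = 0.0165, FDR = 0.192) and an intron 1 bin at chr3:129590940-129591440 had −1.31 (exact p = 0.00622, FDR = 0.113), and the other 5 bins lay between −0.77 and 0.58. With the GC and signal trend subtracted these 2 bins had 0.40 and −0.88, with approximate p of 0.271 and 0.0672. At the 1 place listed in both sexes, in intron 1, the changes were −0.79 and −0.49. The RefSeq window of *Elovl6*, chr3:129532136-129532435 on the plus strand, lies almost wholly in the female promoter bin. It is shown because the bin that covers it holds the start of the gene.
Elovl6 promoter: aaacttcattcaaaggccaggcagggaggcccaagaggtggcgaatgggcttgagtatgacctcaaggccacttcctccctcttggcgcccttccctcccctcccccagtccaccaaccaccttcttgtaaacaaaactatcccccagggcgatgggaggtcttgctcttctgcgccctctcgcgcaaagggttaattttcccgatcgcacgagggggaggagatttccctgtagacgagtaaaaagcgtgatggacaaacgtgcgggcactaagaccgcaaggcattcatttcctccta

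*Scd1* (chr19:44394455-44407879, minus strand) and *Scd2* (chr19:44293674-44306864, plus strand) encode stearoyl-CoA desaturases, which make monounsaturated fatty acids. Most of their bins in the age tables were outside the genes. In control males the bin at chr19:44431501-44432001, at position −23622 from the assigned *Scd1* start and inside an intron of another transcript, fell 3.09-fold (−1.63 [−2.48 to −0.78], FDR = 0.0126). The intergenic bin at chr19:44266662-44267162, at position −26512 from the assigned *Scd2* start, rose 2.72-fold (1.44 [0.68 to 2.20], FDR = 0.0137). After the trend subtraction the *Scd2* bin kept an FDR under 0.05 (1.42, FDR = 0.0266) and the *Scd1* bin did not (−1.44, FDR = 0.0512). The overlapping female bin near *Scd2* had 0.63 (exact p = 0.0548), and females minus males was −0.82 [−1.81 to 0.18].

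Other *Scd1* bins with p under 0.05 were all lower at 8 weeks. In males an intergenic bin at chr19:44412488-44412988 had −1.21 (FDR = 0.122), and 92.6% of it is masked as repeats. In females a bin 28112 bases downstream of the *Scd1* start, chr19:44378078-44378578, had −1.03 (FDR = 0.145), and a bin in an exon of another transcript, chr19:44419366-44419821, had −0.91 (FDR = 0.244). The male bin that overlaps the first of these had 0.08 (exact p = 0.874), a difference of −1.12 [−2.22 to −0.01].

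Around *Scd2* the directions were mixed. In females an intergenic bin at chr19:44284137-44284637 had 0.63 (FDR = 0.328) and a bin in an exon of another transcript, chr19:44278000-44278500, had −0.80 (FDR = 0.334). In males bins at chr19:44274379-44274879 and chr19:44280663-44281012 had −1.09 and −0.90 (FDR = 0.291 and 0.282). The promoter bins of *Scd2* had 0.74 in females (exact p = 0.0516) and −0.73 in males (exact p = 0.0684), at places that do not overlap. No promoter bin of *Scd1* was listed in either age table.

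*Dgat2* (chr7:99153658-99182719, minus strand) encodes the acyltransferase of the last step of triglyceride synthesis. In females 2 of its promoter bins were lower at 8 weeks: chr7:99177443-99177943 (−0.96 [−1.71 to −0.20], exact p = 0.0128, FDR = 0.191) and chr7:99180802-99181302 (−0.83 [−1.64 to −0.03], exact p = 0.0414, FDR = 0.335). In males none of 8 bins had p under 0.05, the promoter bins had −0.69, −0.46 and 0.64, and 7 of 8 bins were below 0. In females 6 of 7 were below 0.

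**Figure D4:**
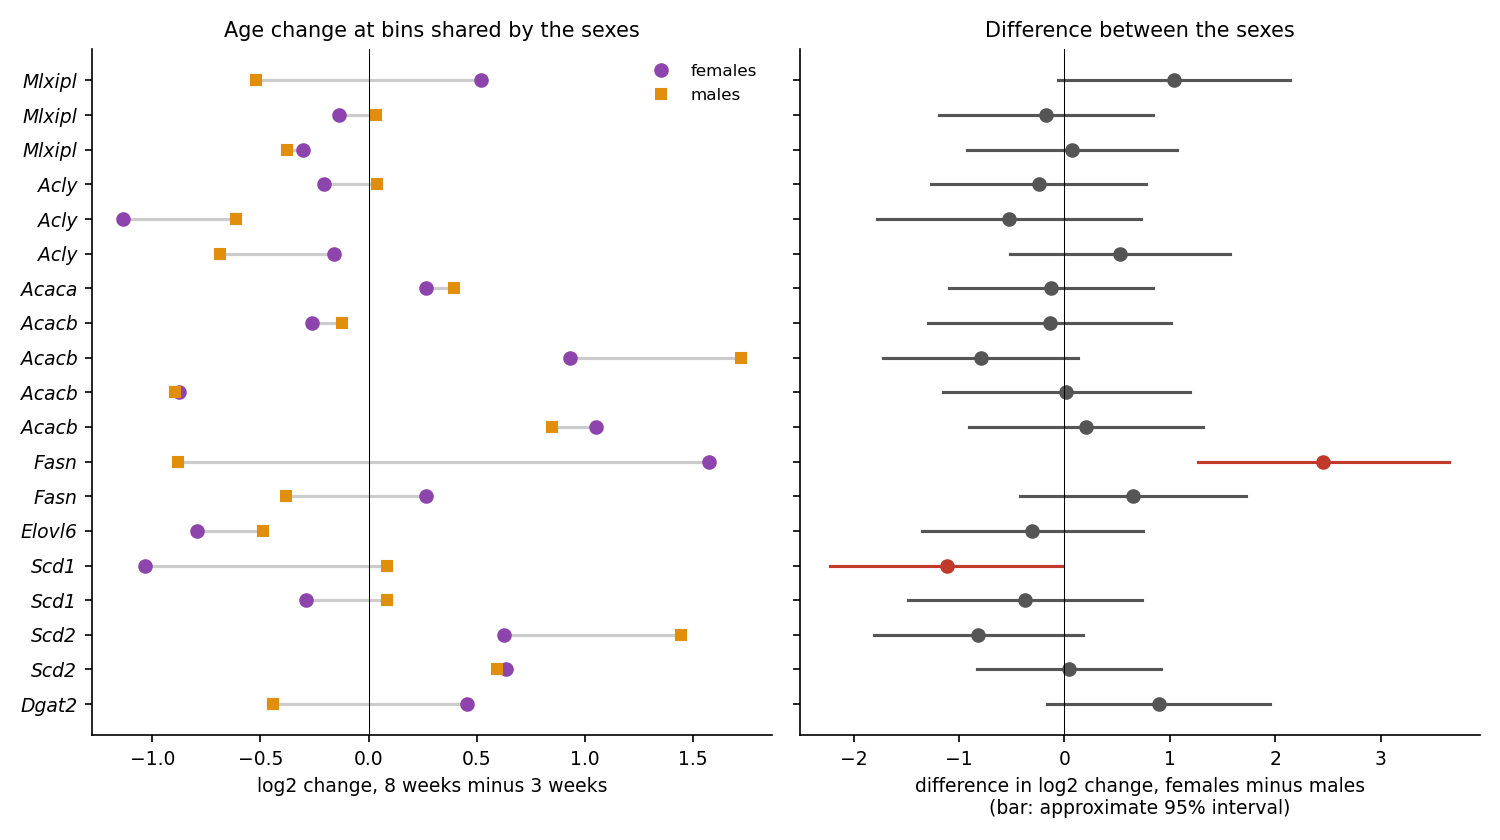
Age change at the 19 places where a female and a male bin overlap by at least 50% of each. The left panel shows the log2 change from 3 to 8 weeks in females (circles) and males (squares), and the right panel shows females minus males with an approximate 95% interval, red where it excludes 0. The interval excludes 0 at *Fasn* (2.46) and at *Scd1* (−1.12).

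At these 19 places, which lie in 9 of the 10 genes, the female and male changes had the same sign at 11, of which 6 were lower and 5 higher in both. How often the signs were the same over all genes was not counted. The interval of females minus males excluded 0 at 2 of the 19, and at 6.90% of the 54475 places compared in the same way over all genes.

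Few member bins passed the threshold with MO. At the study's threshold of an unadjusted p under 0.001, 1 of 74 member bins was called in females at 3 weeks, against 0.211% of all bins. None was called in males at 3 weeks (0.278% of all bins), females at 8 weeks (0.162%) or males at 8 weeks (0.114%). No bin in any of the 4 tables, member or not, had an FDR under 0.05, and the lowest FDR of a member bin was 0.684, 0.803, 0.942 and 1 in these tables. At an unadjusted p under 0.05 by the authors' test there were 11 of 74 member bins in females at 3 weeks (7.72% of all bins), 9 of 79 in males at 3 weeks (8.83%), 5 of 48 in females at 8 weeks (7.00%) and 6 of 48 in males at 8 weeks (6.50%). The median log2 change of the member bins was −0.14, −0.12, −0.02 and −0.12 in the same order, beside −0.01, 0.03, 0.01 and 0.00 over all bins.

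In females at 3 weeks the called bin was in intron 9 of *Acacb*, chr5:114194000-114194500. It was 2.47-fold lower with MO (−1.30 [−2.08 to −0.53], exact p = 0.000937, FDR = 0.684). The call was lost under both corrections tried. With the autosomal median subtracted the change was −1.29 and its approximate p was 0.00107, and with the GC and signal trend subtracted they were −1.25 and 0.0015. Another *Acacb* bin, in intron 35 at chr5:114228851-114229351, had −1.32 [−2.21 to −0.43] (exact p = 0.00369). The *Acacb* bin before the internal start had 0.75 (exact p = 0.0357) and a bin past the end of the gene, chr5:114251629-114252129, had 0.79 (exact p = 0.0361). The other *Acacb* promoter bins had −0.74, 0.07, −0.63, −0.34 and −0.65, and 14 of its 20 bins were below 0.

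In these females 8 of the 11 member bins with p under 0.05 were lower and 3 higher, where all bins gave 5400 lower and 5420 higher. Lower values with MO were also found at the elongase and at the transcription factors. The *Elovl6* bin over its start had −0.98 [−1.73 to −0.23] (exact p = 0.0107), and the intron 1 bin at chr3:129557632-129558132 had −1.21 [−1.98 to −0.43] (exact p = 0.0022). *Srebf1* had −0.87 at chr11:60203791-60204291 (exact p = 0.0192) and −0.71 in intron 1 at chr11:60215263-60215763 (exact p = 0.0393), and its other promoter bins had 0.57, −0.49 and 0.36. *Mlxipl* had −0.79 at chr5:135090058-135090558 (exact p = 0.0465) and −0.20 at its other promoter bin. *Fasn* had −0.74 at chr11:120807005-120807505 (exact p = 0.0385), at the other end of the gene from its age bin. *Dgat2* had 0.80 at chr7:99171369-99171869 (exact p = 0.0453), with −0.61 and −0.30 at its other promoter bins. The *Acly* promoter bins had −0.19, −0.0006, −0.23, 0.08, 0.28 and −0.43. The *Acaca* promoter bin had −0.003 and the *Scd2* promoter bin 0.11.

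The MO comparison at 3 weeks and the female age comparison both subtract the same 4 control females of 3 weeks, so their changes are not independent and are only set side by side. The age change was −0.85, −1.17 and 0.93 at the *Acacb* bins in introns 9 and 35 and before the internal start, −0.86 and −1.20 at the *Elovl6* bins, and −0.73 at the *Srebf1* bin.

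In males at 3 weeks 6 of the 9 bins with p under 0.05 were lower with MO and 3 higher, where all bins gave 5970 lower and 8094 higher. The split of the members turned to 4 lower and 5 higher both with the GC and signal trend subtracted and with bins chosen by the gene model. The split of all bins after the subtraction was not counted. The *Scd2* promoter bin at chr19:44292708-44293208 had −1.08 [−1.86 to −0.29] (exact p = 0.00754), the lowest p of this comparison among members. *Mlxipl* had −0.79 [−1.47 to −0.10] over its first start (exact p = 0.0254). *Acacb* had −0.83 at chr5:114144942-114145442 (exact p = 0.0345), −0.87 at chr5:114200360-114200860 (exact p = 0.0236), 0.83 in intron 20 at chr5:114210082-114210582 (exact p = 0.035) and 0.77 in exon 37 at chr5:114230334-114230834 (exact p = 0.0387). Both *Scd1* bins that were lower with age in males had −0.82 and −0.78 with MO (exact p = 0.0399 and 0.0391), again against the same 3-week controls. An exon 3 bin of *Scd2*, chr19:44298040-44298374, had 0.80 (exact p = 0.0277).

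The male promoter bins at 3 weeks with p of 0.05 or above were spread around 0. They had −0.76, 0.73, 0.08, −0.40, 0.03 and 0.64 at *Srebf1*, and 0.07, 0.52 and −0.71 at *Mlxipl*. *Acly* had 0.46, 0.43, −0.23, −0.08, −0.47, −0.05 and 0.26. *Acacb* had 0.08, 0.38, 0.37, 0.38, −0.67 and 0.47. At *Acaca* they were 0.54 and −0.56, at *Scd1* 0.33 and −0.06, and at *Dgat2* 0.46, −0.22 and −0.05. *Fasn* had −0.77 and *Elovl6* 0.41.

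**Figure D5:**
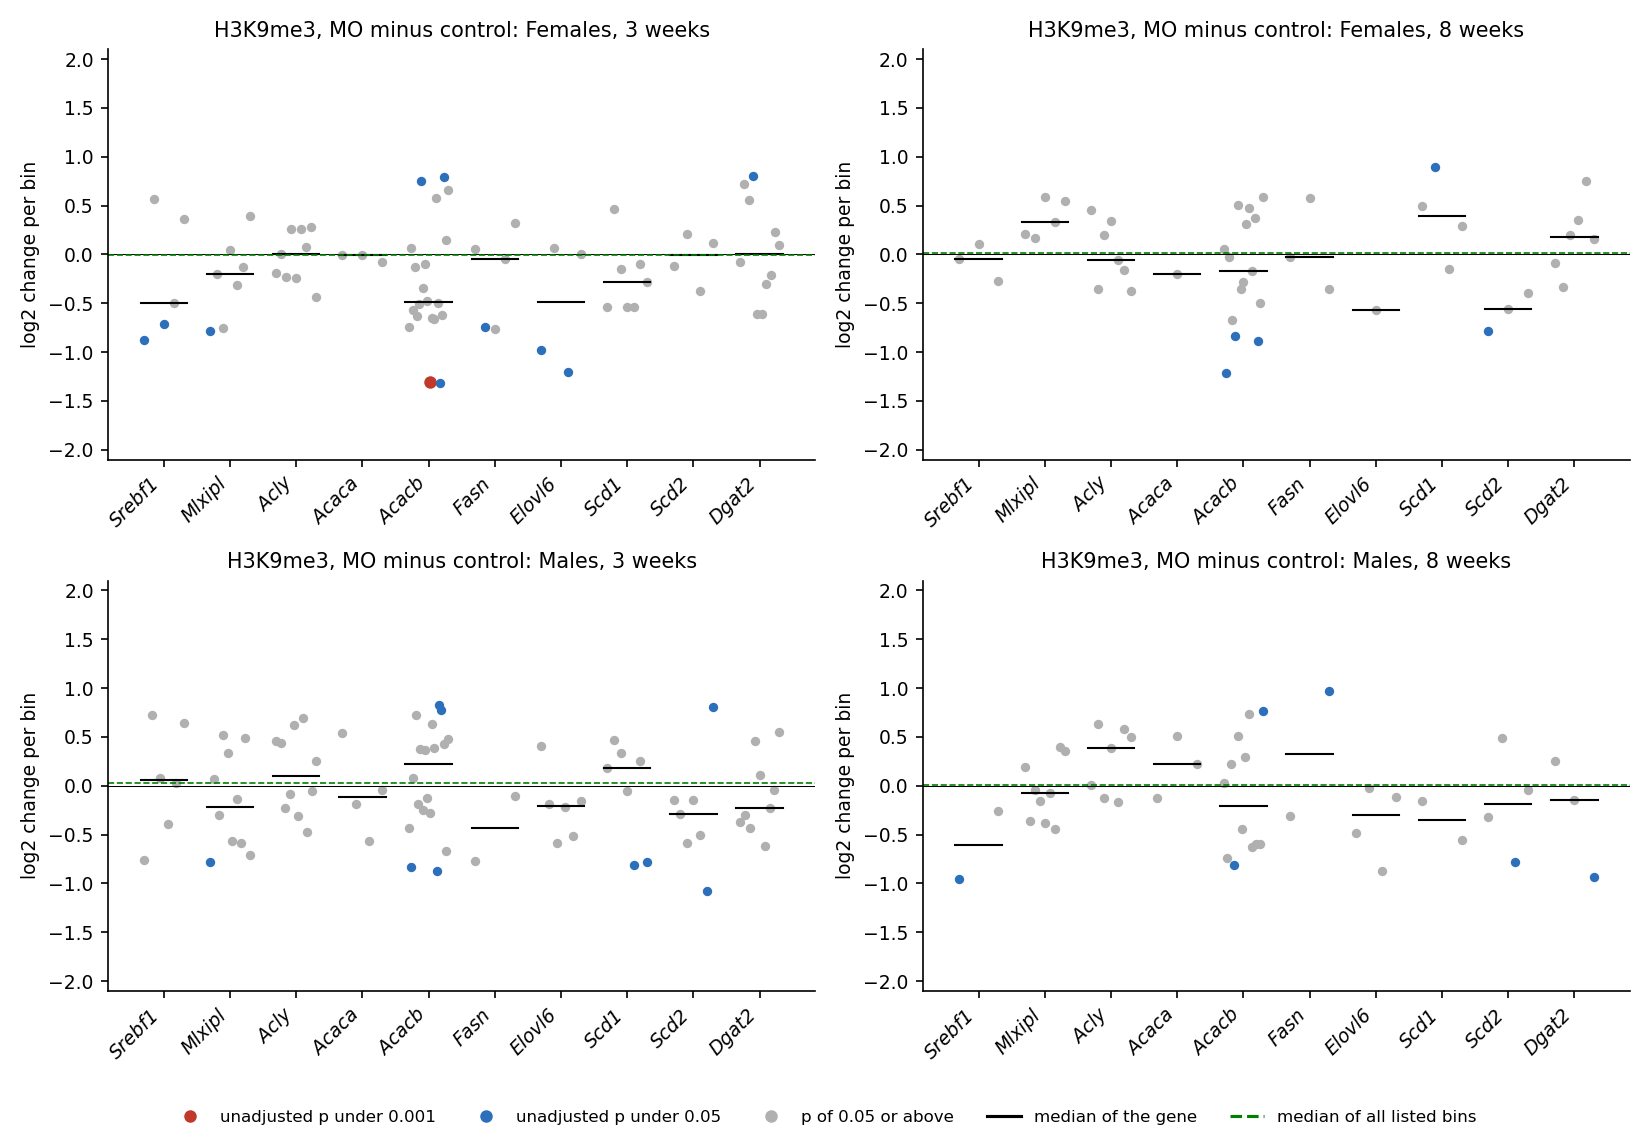
Log2 change of H3K9me3 with MO against control (y axis) in each member bin of the 10 genes (x axis), for females (top) and males (bottom) at 3 weeks (left) and 8 weeks (right). The red point, in *Acacb* of 3-week females, has an unadjusted p under 0.001; blue points have p under 0.05, black lines are medians per gene and the green dashed line is the median of all listed bins.

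At 8 weeks, when both diet groups had been on chow since weaning, 4 of 5 female and 4 of 6 male bins with p under 0.05 were lower in MO offspring. All bins gave 4138 lower and 3995 higher in females, and 3306 lower and 3337 higher in males. With the trend subtracted the member bins were 3 lower and 3 higher in females, and 5 lower and 2 higher in males, and all bins were not counted in this way. In females *Acacb* had −1.22 [−2.09 to −0.34] in intron 1 at chr5:114153383-114153796 (exact p = 0.0064), −0.84 over a start at chr5:114175453-114175953 (exact p = 0.0414) and −0.88 in exon 38 (exact p = 0.0362). The intergenic *Scd2* bin at chr19:44266780-44267280 had −0.79 (exact p = 0.0309), and an exon 3 bin of *Scd1*, chr19:44403099-44403599, had 0.90 (exact p = 0.0296). All 5 *Mlxipl* bins were above 0, between 0.17 and 0.59, and none had p under 0.05. The promoter bins with p of 0.05 or above had −0.04 and −0.27 at *Srebf1*, 0.21 and 0.54 at *Mlxipl*, −0.20 at *Acaca*, 0.06, −0.02, −0.67 and 0.59 at *Acacb*, 0.58 at *Fasn*, −0.57 at *Elovl6*, −0.39 at *Scd2*, and 0.35 and 0.75 at *Dgat2*. *Acly* had 0.46, −0.35, −0.05, −0.16 and −0.38.

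In males at 8 weeks the bins with p under 0.05 were spread over 5 genes. *Srebf1* had −0.96 [−1.79 to −0.12] at the promoter bin chr11:60220293-60220611 (exact p = 0.0252). *Acacb* had −0.81 [−1.40 to −0.22] before the internal start (exact p = 0.00689) and 0.76 at chr5:114248648-114249148 (exact p = 0.0406). *Fasn* had 0.97 [0.20 to 1.73] at chr11:120808047-120808547 (exact p = 0.0133). *Scd2* had −0.78 over its start at chr19:44293708-44294208 (exact p = 0.0368), and *Dgat2* had −0.93 [−1.72 to −0.14] over its start at chr7:99182317-99182817 (exact p = 0.0216). The female bin that overlaps the *Dgat2* start had 0.75 (exact p = 0.0591), so that females minus males was 1.68 [0.57 to 2.79]. The other male promoter bins had −0.26 at *Srebf1*, 0.19, −0.36, −0.04 and 0.36 at *Mlxipl*, 0.00, 0.63, −0.17, 0.58 and 0.50 at *Acly*, 0.51 at *Acaca*, 0.03, 0.23 and −0.45 at *Acacb*, and −0.49 at *Elovl6*.

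The *Acacb* place before the internal start, whose sequence is given above, was listed in all 6 comparisons. Its mark rose with age in males (1.72, FDR = 5.84e-05), and in females the change was 0.93 (exact p = 0.00696, FDR = 0.14). With MO it had 0.75 in females at 3 weeks and 0.37 in males at 3 weeks (exact p = 0.0357 and 0.265), and −0.67 in females and −0.81 in males at 8 weeks (exact p = 0.0685 and 0.00689). The MO change at 3 weeks exceeded that at 8 weeks by 1.42 [0.41 to 2.42] in females and by 1.18 [0.30 to 2.05] in males. No library is shared by the MO comparisons at the 2 ages, nor by the sexes. The age comparison does share controls with each: its 8-week controls are those subtracted at 8 weeks. The exon 38 bin of *Acacb*, higher with age in both sexes, had −0.88 in females and −0.60 in males with MO at 8 weeks (exact p = 0.0362 and 0.112). The average signal of the first place was 14.2 CPM in the male 8-week comparison, higher than 98.4% of the bins of that table.

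The other members had their highest average signals at different kinds of place. *Scd2* reached 12.6 CPM at its intergenic bin chr19:44284101-44284601, where MO males of 8 weeks had 0.49 (exact p = 0.106). *Mlxipl* reached 8.62 CPM at chr5:135106856-135107356, *Acly* 7.82 CPM at chr11:100526984-100527484, *Elovl6* 7.69 CPM at chr3:129533981-129534481 and *Dgat2* 7.25 CPM at chr7:99163278-99163778. *Srebf1* reached 7.14 CPM at chr11:60222832-60223267, *Fasn* 7.09 CPM at chr11:120808047-120808547, *Acaca* 6.74 CPM at chr11:84179682-84180182 and *Scd1* 6.63 CPM at chr19:44418254-44418754. The age change at this *Scd1* bin in females was −0.29 (exact p = 0.502).

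The wider pathway gave shares of called bins near those of all bins. Of a list of 56 related genes (regulators of SREBP and ChREBP, acyl-CoA synthetases, further elongases, desaturases and acyltransferases), 54 had 300 bins in the female age table, of which 5 were higher and 5 lower at an FDR under 0.05, or 3.33%. In males 52 had 398 bins, of which 8 were higher and 9 lower, or 4.27%. With MO, 1 of the bins was called at p under 0.001, in an intron of *Hacd1*, an enzyme of fatty acid elongation, in males at 3 weeks (1.53, FDR = 0.505). In the other 3 MO comparisons none was called. Bins with p under 0.05 by the authors' test were 23 of 367 in females at 3 weeks (6.27%), 40 of 434 in males at 3 weeks (9.22%), 18 of 275 in females at 8 weeks (6.55%) and 20 of 249 in males at 8 weeks (8.03%), beside 7.72%, 8.83%, 7.00% and 6.50% of all bins. Of these pathway bins, 13, 30, 9 and 6 were higher and 10, 10, 9 and 14 lower with MO, in the same order. Over all bins 5420, 8094, 3995 and 3337 were higher and 5400, 5970, 4138 and 3306 lower.

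All 5 pathway bins that rose in females were on the X chromosome. They were a promoter bin of *Acsl4*, an acyl-CoA synthetase (1.28), 3 bins of *Mbtps2*, a protease that releases SREBP (1.25, 1.15 and 0.87), and a promoter bin of *Mid1ip1*, an activator of acetyl-CoA carboxylase (1.33). Of the 6366 X-linked bins of the same comparison, 14.2% were called, 874 higher and 28 lower. The 5 that fell were at *Agpat3* (−2.06) and *Agpat5* (−1.78), which encode acyltransferases of phosphatidic acid synthesis, *Insig1* (−1.77), which retains SREBP in the endoplasmic reticulum, *Acsl1* (−1.31) and *Scd4* (−1.503). The member genes are all autosomal.

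In males, 9 pathway bins fell. They were at *Dgat1* (−2.75, FDR = 0.00103), the other enzyme of the last step, *Agpat2* (−1.88), *Agpat3* (−1.43), *Agpat4* (−1.67), *Gpam* (−1.42), *Lpin1* (−1.502), *Elovl2* (−1.45), *Insig1* (−1.31) and *Gpat4* (−1.85). Those that rose were at *Nr1h2*, which encodes the oxysterol receptor LXR beta (1.503, FDR = 5.56e-05), *Fads2* (1.78), *Acsl6* (1.21), *Mogat2* (1.24), *Pnpla3* (1.16), *Scd3* (1.41), a second *Gpat4* bin (1.21) and a second *Lpin1* bin (1.53). The *Lpin1* bins lie 277122 and 146589 bases from the start they are assigned to.

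Bins near marker genes of liver cell types were counted in the age comparisons, where 2.72% of all bins were called in females and 4.41% in males. Of the 10 genes in the hepatocyte list, which includes *Alb* and *Apob*, 4 had a bin in females and 7 in males. Of 6 Kupffer cell and immune markers 4 and 6 had a bin, and of 4 endothelial markers 3 and 4. Near hepatocyte markers 0 of 27 bins were called in females and 2 of 39 (5.13%) in males. Near Kupffer cell and immune markers none of 16 and 23 was called, near endothelial markers 1 of 34 and 1 of 47, near cholangiocyte markers none of 23 and 25, near stellate cell markers none of 24 and 31, and near adipocyte markers none of 12 and 1 of 15 (6.67%). At p under 0.05 by the authors' test, where all bins gave 17.5% in females and 21.8% in males, the shares in females and males were 14.8% and 15.4% for hepatocyte markers, 6.25% and 0% for Kupffer cell and immune markers, 11.8% and 23.4% for endothelial markers, 21.7% and 16.0% for cholangiocyte markers, 25.0% and 6.45% for stellate cell markers, and 8.33% and 6.67% for adipocyte markers. H3K9me3 does not measure the expression of these genes, so the tissue label was not checked by expression here, and the part of cell composition in the changes was not tested.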

How the data were processed

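Liver chromatin of 32 offspring, in 8 groups of 4, was profiled by H3K9me3 ChIP-seq, with 4 input libraries that were not used here. The authors aligned paired-end reads with BWA to mm10/GRCm38, called broad peaks with MACS2, kept peaks found in at least 3 replicates, merged the conditions of a sex, cut peaks into bins of 500 bp, counted reads with featureCounts and ran edgeR's exact test for each contrast. ChIPseeker gave each bin its gene. In the deposited tables the change and the average CPM are log2 values, and the p-value and FDR are unadjusted and Benjamini-Hochberg adjusted values by the authors. These columns were the authors' comparisons and the only values at hand, so they were used as the measurements, nothing was refitted, and the depth per library is unknown here.

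Age tables were turned to 8 minus 3 weeks. Each peak has 1 bin in a table, and how it was chosen is not given in the sources used here. Thresholds were an FDR of 0.05 for age and a p of 0.001 for MO, as in the study. The members and lists were chosen with earlier results of these data known. Named with values were every member bin with p under 0.05, every member promoter bin and the bin of highest signal per gene, plus called bins of the pathway list. An approximate 95% interval used the standard error implied by a change and its p, where p was under 0.5. Places were compared where bins overlapped by at least 50% of each. GC content, repeats and sequences came from GRCm38 and the RefSeq promoter table of GRCm38.p6, and gene bounds from GENCODE M21. The alternatives were other thresholds, other choices of bins, and subtraction of the autosomal median or of the median change per GC and signal decile. The functions were tested on simulated data. Python 3.11.15, numpy 2.4.6, pandas 2.3.3 and scipy 1.17.1 were used.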

Additional observations from a re-analysis of the deposited data

Results flagged for a closer look

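At 117 places 2 comparisons without shared libraries were set side by side, and 7 (5.98%) had a difference whose approximate 95% interval excluded 0. Over all genes the same held for 6.06% of 305678 places, so the share at the member genes was near the background. These intervals were derived from the change and p of each table.

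Between the sexes, the age change at *Fasn* was 1.57 in females and −0.88 in males, a difference of 2.46, and both bins came from peaks of over 32 bins. The age change downstream of *Scd1* was −1.03 in females and 0.08 in males, a difference of −1.12. With MO at 8 weeks, the start of *Dgat2* had 0.75 in females and −0.93 in males, a difference of 1.68. In the same comparison the intergenic *Scd2* bin at chr19:44284137-44284637 had −0.56 in females and 0.49 in males, a difference of −1.05.

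Between the ages, the MO change at the *Acacb* place before the internal start was 0.75 at 3 weeks and −0.67 at 8 weeks in females, a difference of 1.42. In males it was 0.37 and −0.81, a difference of 1.18. The intergenic *Scd2* bin of males at chr19:44284101-44284601 had −0.51 and 0.49, a difference of −1.001.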

How the results depend on the processing

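No paired analysis was possible because the tables hold comparisons and no values per library, and for the same reason no replicate was left out. The count of called member bins in the female age comparison, 1, became 0 at an FDR under 0.01, in peaks of 1 bin and among bins above the median signal, and 2 at an FDR under 0.1. The male age count, 5, became 3 at an FDR under 0.01, 8 at an FDR under 0.1, 0 in peaks of 1 bin, 2 above the median signal and 1 after the GC and signal trend was subtracted. The bin left was that of *Scd2*. The count for MO in females at 3 weeks, 1, became 3 at p under 0.01, 11 at p under 0.05, and 0 at an FDR under 0.05, in peaks of 1 bin, above the median signal and after the trend was subtracted. The MO counts of 0 became 1 at p under 0.01 in each of the other 3 comparisons, and 9 (males at 3 weeks), 5 (females at 8 weeks) and 6 (males at 8 weeks) at p under 0.05. Shares of all bins were not counted at p under 0.01 or at FDRs under 0.01 and 0.1, so the member counts there have no background beside them. The gene model with its upstream part, and promoter and gene body bins alone, kept all 6 counts within 1.5 times, and adjustment recomputed over the listed bins kept both age counts. The bins behind a count could differ. In males with age the gene model gave 4 called bins, 2 higher and 2 lower. The called *Scd1* and *Scd2* bins lie outside the gene model, and a bin assigned to another gene symbol came in.

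The median change of the male age bins reversed to 0.22 above the median signal. The median for MO in females at 8 weeks, −0.02, reversed to 0.055 with the gene model and with promoter and gene body bins, 0.21 above the median signal, 0.10 without *Acacb* and 0.018 after the trend was subtracted. For MO in males at 3 weeks the median was −0.05 with the gene model and −0.05 in peaks of 1 bin. In males at 8 weeks it was −0.04 with the gene model, and in females at 3 weeks −0.04 in peaks of 1 bin. The other settings kept the medians of these comparisons within 1.5 times. None of the 74 member bins with p under 0.05 changed sign under autosomal centring or trend subtraction, and 9 and 32 of them, respectively, no longer had p under 0.05. All alternatives for the medians and for the counts at p under 0.05, the removal of *Acacb* among them, and the short sterol motif were added after seeing the data. The cause of these shifts was not tested. The bins hold a median of 4.10 to 6.68 CPM, and the smallest change of a member bin with p under 0.05 was 0.63 on the log2 scale.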
